A study of Mus musculus with 6 samples.

Results

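Matrix metalloproteinases were followed in injured mouse livers through the 10 genes Mmp2, Mmp7, Mmp8, Mmp9, Mmp12, Mmp13, Mmp14, Mmp15, Mmp19 and Mmp23, picked by symbol from the 24532 genes of the deposited gene table. These 10 are among 23 genes of the family in that table, and the other 13 are described near the end. All 6 mice were wild-type C57BL/6 animals that were fed chow holding 0.1% DDC, a porphyrin-forming compound that injures bile ducts, over 4 weeks. During the later 2 weeks, 3 of them were injected with recombinant human cytoglobin (rhCYGB, 2 mg/kg, 2 times a week), and the other 3 received its vehicle, normal saline. Livers were collected 2 days after the final injection, and whole-liver mRNA was sequenced. Each mouse carries its own animal number in the labels. Both groups received DDC, so there is no uninjured liver to set either level against.

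Metalloproteinases are zinc-dependent enzymes that cut collagens, elastin, basement membrane and many cell surface proteins. Most are secreted as inactive proenzymes and some are anchored in the plasma membrane. Tissue inhibitors of metalloproteinases (TIMPs) block the active site. In liver scarring they are studied because they can both remodel and dissolve the scar, and macrophages, neutrophils, stellate cells and bile duct cells are known sources.

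No gene passed the threshold of an adjusted p of 0.05 over the 14415 genes tested (edgeR quasi-likelihood test, 0% called), so the differences below are described by their values. Of the 10 metalloproteinases, Mmp13, Mmp12, Mmp9 and Mmp8 were lower in every rhCYGB liver than in any vehicle liver. Mmp13 was 3.67-fold, Mmp12 2.95-fold, Mmp9 2.25-fold and Mmp8 1.76-fold lower with rhCYGB. Mmp7 was 4.49-fold higher with rhCYGB on average, through rhCYGB mice 2 and 3 only. The other 5 genes had groups that overlapped.

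One library, that of rhCYGB mouse 1, stood nearer to the other group than to its own. Total estimated counts were 59739026 to 72431373 with rhCYGB and 58422095 to 66174274 with vehicle. Over all genes tested, the log2 values of rhCYGB mouse 1 correlated with those of the vehicle mice at Pearson r between 0.974 and 0.981, and with those of rhCYGB mice 2 and 3 at 0.927 and 0.896. Relative to the mean of the 6 libraries, log2 expression changed per doubling of transcript length by 0.21, -0.31 and -0.29 in rhCYGB mice 1 to 3 and by 0.35, -0.02 and 0.05 in vehicle mice 1 to 3. The scaling factors (TMM) were 1.18, 0.74 and 0.63 with rhCYGB and 1.45, 1.07 and 1.18 with vehicle. For each of the 10 genes the log2 fold change is therefore also given with the length trend removed and on log2(TPM + 1), where the medians of all genes were 0.10 and -0.51. The tissue label fits the 12 hepatocyte marker genes, which summed to between 123385 and 143643 transcripts per 1000000 (TPM) with rhCYGB and between 122176 and 138419 TPM with vehicle.

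Mmp13, Mmp12, Mmp8 and Mmp7 lie in a single cluster of 10 metalloproteinase genes on chromosome 9, spanning 7272514 to 7699585 on mm10, or 427 kb. The sequence just before the start of these 4 genes is shown because genes of this cluster had opposite directions. Each line holds the 250 bases before the RefSeq start on the plus strand of GRCm38.p6, 5′ to 3′, and capitals mark the AP-1 binding motif TGAGTCA, searched on both strands (TGACTCA is its reverse complement). AP-1 is the Fos and Jun transcription factor pair, a known inducer of metalloproteinase genes. These starts match the starts of the deposited transcripts NM_008607, NM_008605, NM_008611 and NM_010810.
Mmp13, chr9:7272264-7272513: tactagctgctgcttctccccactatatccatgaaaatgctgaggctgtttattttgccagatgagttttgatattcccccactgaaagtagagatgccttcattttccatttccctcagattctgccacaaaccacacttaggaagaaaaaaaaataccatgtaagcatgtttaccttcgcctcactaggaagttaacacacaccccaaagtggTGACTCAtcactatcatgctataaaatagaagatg
Mmp12, chr9:7347124-7347373: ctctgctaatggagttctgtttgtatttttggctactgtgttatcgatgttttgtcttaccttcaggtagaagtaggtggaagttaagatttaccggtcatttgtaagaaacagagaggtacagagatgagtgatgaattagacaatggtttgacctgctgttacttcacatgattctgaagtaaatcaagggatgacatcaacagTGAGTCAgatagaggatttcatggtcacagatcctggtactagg
Mmp8, chr9:7558179-7558428: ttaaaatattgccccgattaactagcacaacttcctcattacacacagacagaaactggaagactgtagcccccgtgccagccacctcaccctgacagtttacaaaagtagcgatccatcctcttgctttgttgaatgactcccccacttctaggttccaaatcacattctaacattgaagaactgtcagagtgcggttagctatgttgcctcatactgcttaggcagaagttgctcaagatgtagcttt
Mmp7, chr9:7691840-7692089: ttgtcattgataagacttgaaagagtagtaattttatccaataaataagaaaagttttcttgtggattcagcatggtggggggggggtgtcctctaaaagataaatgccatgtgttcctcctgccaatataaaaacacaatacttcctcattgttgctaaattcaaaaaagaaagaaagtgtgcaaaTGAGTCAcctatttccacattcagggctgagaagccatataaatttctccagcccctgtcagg
The motif began 35 bases before the start of Mmp13, 44 before that of Mmp12 and 63 before that of Mmp7. It was absent from the windows of Mmp8, Mmp14, Mmp15 and Mmp23, and from a second window each of Mmp7 (NM_001319986) and Mmp12 (NM_001320077). So 3 of the 10 RefSeq windows of 7 members held it, against 4.46% of 32851 windows of that length. The windows are not independent, as those of Mmp23 overlap, and the share describes these windows only. No window was found for Mmp2, Mmp9 or Mmp19. The motif stood before Mmp13 and Mmp12, which were lower with rhCYGB, and before Mmp7, which was higher. A match describes letters and is not a measured binding site.

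Of the 10 genes in the cluster 6 had enough counts to test. Mmp13, Mmp12, Mmp3, Mmp8 and Mmp27 had negative log2 fold changes, and Mmp7, at the far end, was the 1 with a positive value.

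**Figure D1:**
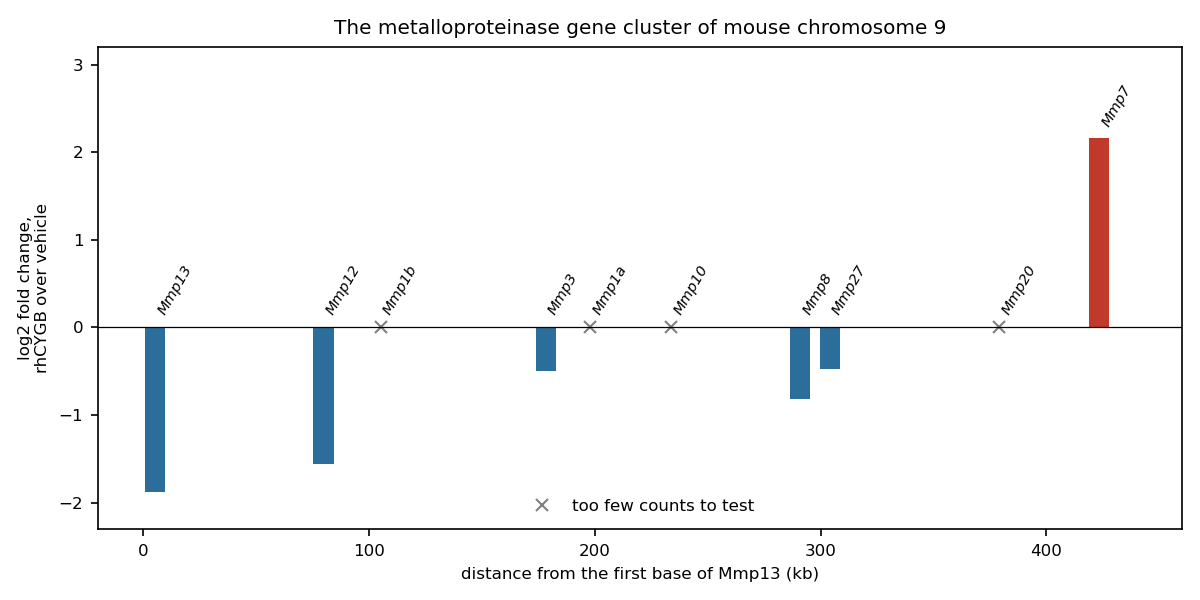
The log2 fold change (rhCYGB over vehicle, edgeR) of each metalloproteinase gene of the chromosome 9 cluster, placed by the distance of its midpoint from the first base of Mmp13 in kb. Bars are tested genes and crosses are genes with too few counts. The bars run between -1.88 for Mmp13 and 2.17 for Mmp7, and no gene passed the adjusted threshold.

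Levels between genes were compared in TPM, which accounts for transcript length. With rhCYGB the order of group means was Mmp7 at 91.8 ± 73.2 TPM, Mmp14 at 54.9 ± 6.19, Mmp19 at 33.7 ± 19.7, Mmp12 at 25.5 ± 15.8 and Mmp15 at 15.4 ± 16.0 TPM (SD, n = 3). With vehicle it was Mmp12 at 110.3 ± 44.4 TPM, Mmp14 at 61.2 ± 7.64, Mmp19 at 45.3 ± 13.7, Mmp7 at 44.8 ± 16.5 and Mmp15 at 25.9 ± 13.4 TPM (SD, n = 3). Mmp12 thus stood behind Mmp7, Mmp14 and Mmp19 with rhCYGB and ahead of every other member with vehicle. With rhCYGB the ranges of neighbours in the order overlapped everywhere except between Mmp23 and Mmp9. With vehicle the ranges were apart between Mmp12 and Mmp14, Mmp15 and Mmp2, Mmp23 and Mmp13, and Mmp9 and Mmp8. Mmp2, Mmp23, Mmp9, Mmp13 and Mmp8 averaged between 0.579 and 5.70 TPM with rhCYGB and between 1.63 and 8.86 TPM with vehicle.

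The 10 genes together summed to 226, 202 and 277 TPM in rhCYGB mice 1 to 3, against 334, 258 and 354 TPM in vehicle mice 1 to 3. These sums overlapped between the groups. Mmp12 made up 18.3%, 12.6% and 3.51% of the sum with rhCYGB and 26.7%, 31.2% and 45.6% with vehicle, so its share did not overlap. Mmp7 made up 12.5%, 37.2% and 61.9% with rhCYGB and 18.1%, 10.7% and 13.1% with vehicle. The ratio of Mmp7 to Mmp12 in TPM was 0.682, 2.97 and 17.6 with rhCYGB and 0.677, 0.342 and 0.288 with vehicle. In the make-up of the family, rhCYGB mice 2 and 3 were rich in Mmp7, while rhCYGB mouse 1 held a Mmp7 share within the vehicle range.

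**Figure D2:**
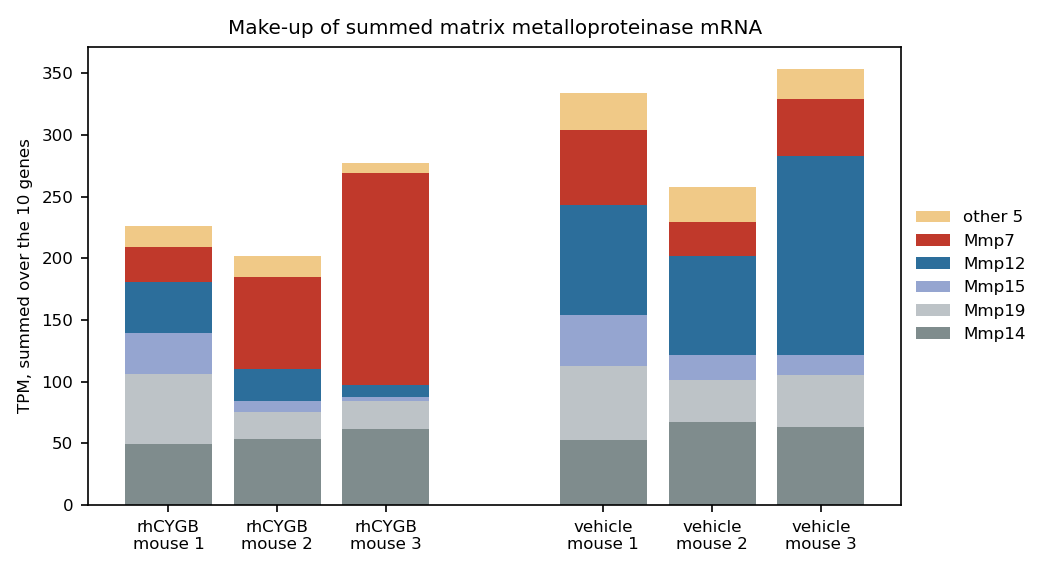
TPM of the 10 genes stacked for each mouse, with the 5 least abundant drawn together as other 5. The Mmp12 part is largest in vehicle mouse 3 at 161 TPM and smallest in rhCYGB mouse 3 at 9.74 TPM, where Mmp7 reaches 172 TPM.

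The collagenases cut the triple helix of fibrillar collagen. Mmp13 (gene 17386, chromosome 9, 7272514 to 7283333), the main interstitial collagenase of mice, was at 2.89, 1.82 and 0.637 counts per 1000000 (CPM, TMM-scaled) in rhCYGB mice 1 to 3, against 5.42, 6.43 and 7.95 CPM in vehicle mice 1 to 3. Every rhCYGB value lay below every vehicle value, and rhCYGB mouse 3 was the lowest. In TPM it was at 2.33, 0.728 and 0.219 with rhCYGB, against 5.69, 4.25 and 5.95 with vehicle, with the same order within the rhCYGB group. Its log2 fold change was -1.88 (SE 0.54, edgeR unadjusted p = 0.00978, adjusted p = 0.523). It was -1.77 with the length trend removed and -1.71 on log2(TPM + 1). Mmp8 (gene 17394, chromosome 9, 7558429 to 7568486), the collagenase stored in neutrophil granules, was at 0.964, 0.965 and 1.27 CPM with rhCYGB, against 1.48, 1.76 and 2.38 CPM with vehicle. Its groups did not overlap, at 48 to 74 estimated counts with rhCYGB and 124 to 167 with vehicle. Its log2 fold change was -0.81 (SE 0.39, edgeR unadjusted p = 0.0724, adjusted p = 0.523), -0.67 with the length trend removed and -0.74 on log2(TPM + 1). In whole liver, fewer cells of a type and less RNA per cell cannot be told apart.

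The gelatinases cut denatured collagen and the type IV collagen of basement membranes, and they differed from each other. Mmp9 (gene 17395, chromosome 2, 164948219 to 164955850), a product of neutrophils and macrophages, was at 3.69, 2.97 and 0.983 CPM with rhCYGB, against 6.29, 5.83 and 5.16 CPM with vehicle. The groups did not overlap, and rhCYGB mouse 3 was again the lowest. In TPM it was at 2.50, 1.00 and 0.284 with rhCYGB, against 5.57, 3.25 and 3.25 with vehicle, also without overlap. On the log2 scale the difference was -1.17 (SE 0.49, edgeR unadjusted p = 0.0461, adjusted p = 0.523), -0.97 with the length trend removed and -1.24 on log2(TPM + 1). Mmp2 (gene 17390, chromosome 8, 92827297 to 92853421), the gelatinase of stellate cells and fibroblasts, was at 10.6, 16.5 and 13.0 CPM with rhCYGB and at 10.3, 17.7 and 10.7 CPM with vehicle. These ranges nearly coincided, with mouse 2 the highest in each group. Its log2 fold change was 0.051 (SE 0.32, edgeR adjusted p = 0.937), and it was 0.33 with the length trend removed and -0.58 on log2(TPM + 1).

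Mmp12 (gene 17381, chromosome 9, 7344397 to 7360461), the macrophage metalloelastase, was at 69.3, 85.3 and 38.3 CPM with rhCYGB, against 115, 164 and 291 CPM with vehicle. The highest rhCYGB value was below the lowest vehicle value, and vehicle mouse 3 stood above the other vehicle mice. On the log2 scale Mmp12 differed by -1.56 (SE 0.45, edgeR unadjusted p = 0.00999, adjusted p = 0.523). It was -1.28 with the length trend removed and -2.21 on log2(TPM + 1). DESeq2 called Mmp12 lower at an adjusted p of 0.0356, 1 of 65 genes called, or 4.17%, among the 1558 left by its own filtering. Of those 65 genes, 63 were higher and 2 lower with rhCYGB. That filtering left 2 of the 10 metalloproteinases, Mmp12 and Mmp14, with an adjusted p. Mmp13 had a smaller unadjusted DESeq2 p (0.000576, against 0.00105 for Mmp12) but no adjusted p. In TPM Mmp12 was at 41.4, 25.4 and 9.74 with rhCYGB, against 89.1, 80.5 and 161 with vehicle, also without overlap. Over all the settings tried, its log2 fold change ran from -2.27 to -1.12.

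Mmp7 (gene 17393, chromosome 9, 7692090 to 7699585), matrilysin, is a small enzyme of glandular and bile duct epithelium that lacks the hemopexin-like domain of most of the family. It was at 14.0, 74.9 and 199.9 CPM in rhCYGB mice 1 to 3, against 23.0, 16.6 and 24.8 CPM in vehicle mice 1 to 3. rhCYGB mouse 1 was below all 3 vehicle mice, while rhCYGB mice 2 and 3 were above them all, so the groups overlapped. In TPM it was at 28.2, 75.3 and 172 with rhCYGB and at 60.4, 27.6 and 46.4 with vehicle, again lower in rhCYGB mouse 1 than in vehicle mice 1 and 3. Its mean log2 fold change was 2.17 (SE 0.82, edgeR unadjusted p = 0.0315, adjusted p = 0.523). It was 1.06 without rhCYGB mouse 3. Without rhCYGB mouse 1 it was 2.67 with an edgeR adjusted p of 0.0212, in a fit that called 3391 of 14647 genes, or 23.2%. With a mean transcript length of 1068 bases, Mmp7 was the shortest of the 10 genes, and 9.34% of genes tested were shorter. With the length trend removed its log2 fold change was 1.62 (SE 0.74, edgeR unadjusted p = 0.0642), and on log2(TPM + 1) it was 0.74. What part of the Mmp7 difference goes with transcript length beyond that correction was not tested.

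The membrane-anchored members had groups that overlapped. Mmp14 (gene 17387, chromosome 14, 54431598 to 54442456), which with TIMP2 activates proMMP2 at the cell surface, was at 87.0, 190.4 and 255 CPM with rhCYGB and at 71.3, 145 and 120.2 CPM with vehicle. Its level in TPM was 49.4, 53.7 and 61.6 with rhCYGB and 52.7, 67.5 and 63.2 with vehicle, so its direction depended on the scaling. The log2 fold change was 0.66 (SE 0.46, edgeR adjusted p = 0.552), and it was 1.10 with the length trend removed and -0.15 on log2(TPM + 1). Relative to the median of all genes on that scale, the difference was 0.36. Mmp14 was the member that varied least between mice in TPM, relative to its mean, in both groups.

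Mmp15 (gene 17388, chromosome 8, 95352296 to 95374293), another membrane-type enzyme, was at 67.1, 36.8 and 16.2 CPM with rhCYGB and at 63.5, 49.1 and 35.4 CPM with vehicle. rhCYGB mice 2 and 3 were near or below the lowest vehicle mouse, and rhCYGB mouse 1 was the highest of all 6. For Mmp15 the log2 fold change was -0.30 (SE 0.50, edgeR adjusted p = 0.762), -0.029 with the length trend removed, -1.11 on log2(TPM + 1) and 0.067 without rhCYGB mouse 3. In TPM it was at 33.5, 9.13 and 3.43 with rhCYGB and at 41.3, 20.1 and 16.4 with vehicle, so rhCYGB mouse 1 lay within the vehicle range and rhCYGB mice 2 and 3 below it. Mmp15 has the longest transcript of the 10, at 4320 bases. Mmp23 (gene 26561, chromosome 4, 155650655 to 155653384), which is tethered through its amino-terminal end, was at 2.88, 11.2 and 4.75 CPM with rhCYGB and at 3.82, 7.29 and 4.42 CPM with vehicle. In each group mouse 2 was the highest. Its log2 fold change was 0.27 (SE 0.54, edgeR adjusted p = 0.793), and it was -0.44 without rhCYGB mouse 2, -0.0060 with the length trend removed and -0.53 on log2(TPM + 1). Mmp19 (gene 58223, chromosome 10, 128790910 to 128800827), a broadly made secreted enzyme that cuts basement membrane proteins, was at 87.3, 69.1 and 84.6 CPM with rhCYGB and at 71.6, 63.0 and 70.8 CPM with vehicle. Its log2 fold change was 0.23 (SE 0.22, edgeR adjusted p = 0.625), and it was -0.52 on log2(TPM + 1). With the length trend removed it was 0.54 (SE 0.22, edgeR unadjusted p = 0.0445).

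**Figure D3:**
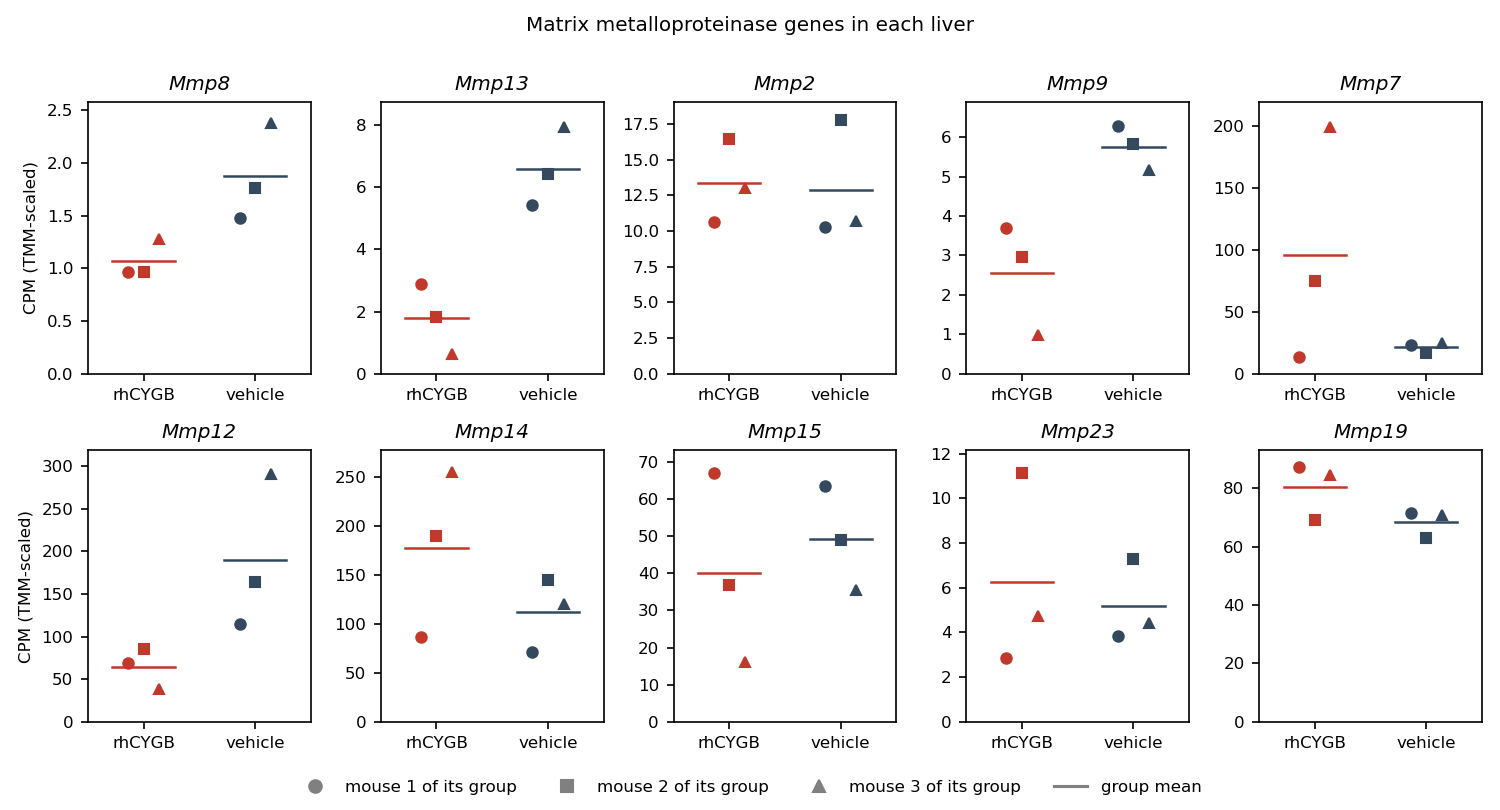
CPM (TMM-scaled) of each gene in each mouse, rhCYGB left and vehicle right, with horizontal lines at group means and a marker shape for each mouse of a group. Mmp8, Mmp13, Mmp9 and Mmp12 have all 3 rhCYGB mice below all 3 vehicle mice, and Mmp7 is high in rhCYGB mice 2 and 3 only.

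All 10 genes passed the expression filter, and 5 had lower and 5 had higher means with rhCYGB, with a median log2 fold change of -0.13 against -0.056 over all genes tested. The groups did not overlap, with lower rhCYGB values, for 4 of the 10, against 7.38% of all genes tested, and with higher rhCYGB values for 0, against 6.02%. In TPM the same 4 genes, Mmp8, Mmp9, Mmp12 and Mmp13, were lower without overlap, against 12.7% of all genes, and 0 were higher, against 1.33%. At an unadjusted edgeR p under 0.05 there were 3 lower members (Mmp9, Mmp12 and Mmp13, background 2.06%) and 1 higher member (Mmp7, background 6.06%), and 8.12% of all genes passed in either direction. That count of 4 was 2 without vehicle mouse 1, vehicle mouse 2 or vehicle mouse 3, with Mmp12 and Mmp13 left each time. Without rhCYGB mouse 1 there were 3 lower and 2 higher members at that threshold, with Mmp14 added as higher. Leaving out rhCYGB mouse 2 gave 2 lower (Mmp12 and Mmp13) and 1 higher (Mmp7). Leaving out rhCYGB mouse 3 gave 3 lower (Mmp9, Mmp12 and Mmp13) and 0 higher. Limma-voom with sample quality weights called 5 of the 10 at an adjusted p of 0.05 (Mmp7 higher, Mmp8, Mmp9, Mmp12 and Mmp13 lower), when it called 30.0% of all genes. Without rhCYGB mouse 1, edgeR called Mmp13 lower (adjusted p = 0.0231) and Mmp7 higher, when it called 23.2% of all genes. The adjusted p of Mmp12 and Mmp9 was then 0.0528 and 0.0570.

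**Figure D4:**
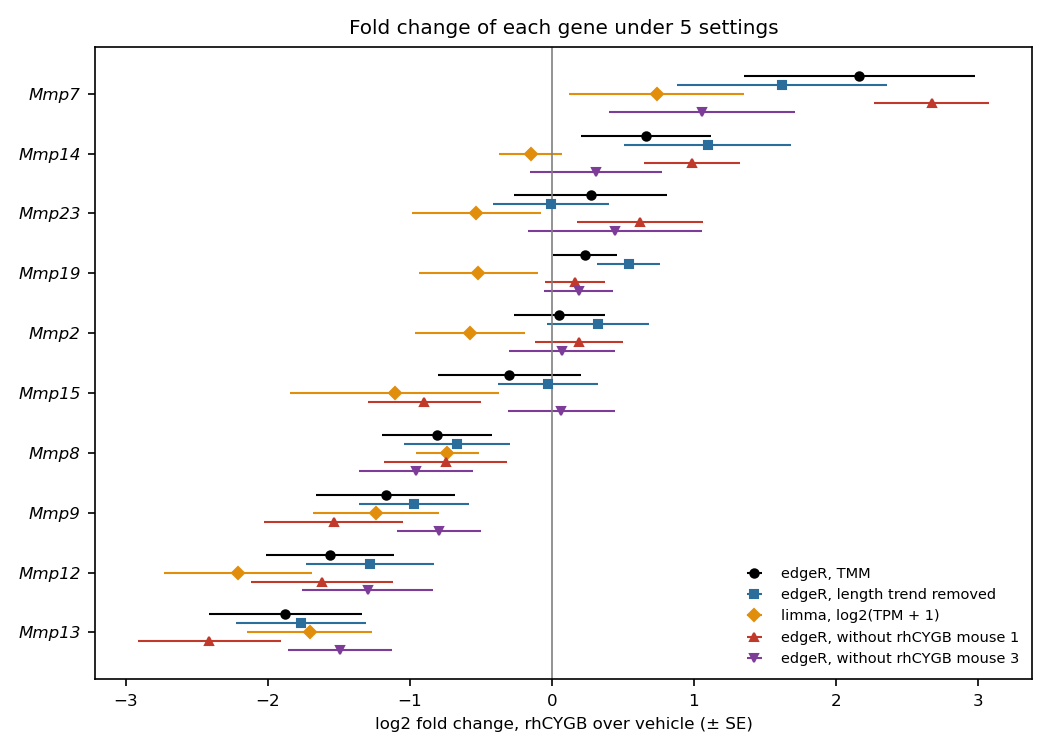
The log2 fold change of each gene, rhCYGB over vehicle, with its SE, under 5 settings listed in the legend. Mmp8, Mmp9, Mmp12 and Mmp13 lie left of 0 and Mmp7 right of 0 in all 5, whereas Mmp2, Mmp14, Mmp15, Mmp19 and Mmp23 lie on both sides.

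The transcript table holds 15 transcripts of these genes, of which 14 were tested and 0 of 19664 transcripts passed an adjusted p of 0.05 (edgeR, 0% called, 795 or 4.04% at an unadjusted p under 0.05). Mmp7, Mmp12, Mmp19 and Mmp23 have several transcripts. Of Mmp12, transcript NM_008605 held 85.1%, 100% and 99.4% of the gene's estimated counts with rhCYGB and 79.2%, 99.4% and 99.2% with vehicle. Its log2 fold change was -1.64 (SE 0.52, edgeR unadjusted p = 0.0223, adjusted p = 0.802). Of Mmp19, NM_021412 held 46.0%, 100% and 100% with rhCYGB and 41.0%, 35.1% and 67.9% with vehicle, while NM_001164197 had 3615, 0 and 0 estimated counts with rhCYGB and 3569, 2882 and 1595 with vehicle. Of Mmp23, NM_001320235 held 11.8%, 79.4% and 26.3% with rhCYGB and 49.2%, 59.3% and 11.0% with vehicle, with no separation of the groups. The short form of Mmp7, NM_001319986, had 0 estimated counts in all 3 rhCYGB livers and 12, 17 and 24 with vehicle, at most 1.45% of the gene. These transcripts of a gene share most of their exons, and the counts carry the assembler's division of reads among them.

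The other 13 metalloproteinase genes were scarce, and 6 of them passed the filter. Their summed level was 6.03, 2.91 and 1.63 TPM with rhCYGB and 8.82, 5.49 and 8.72 TPM with vehicle. Of the 6 tested, 5 had lower values and 1 higher, with 0 under an unadjusted p of 0.05. Mmp11, a stromal enzyme, was at 0.964, 0.687 and 0.717 CPM with rhCYGB and at 1.59, 1.46 and 1.15 CPM with vehicle, without overlap (edgeR adjusted p = 0.523). Mmp27 was at 3.56, 3.60 and 1.81 CPM with rhCYGB and at 2.86, 3.52 and 6.12 CPM with vehicle. Mmp1a, Mmp1b and Mmp21 were listed at 0 in all 6 livers.

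Among the 11 genes listed as metalloproteinase inhibitors, all tested, 7 had lower and 4 higher values with rhCYGB, with a median log2 fold change of -0.71, against -0.056 over all genes tested. At an unadjusted p under 0.05 there were 1 lower and 1 higher inhibitor, against 2.06% and 6.06% of all genes. In CPM, 2 inhibitors were lower and 1 was higher without overlap, against 7.38% and 6.02% of all genes tested. Timp1, a secreted inhibitor made in scarring liver, was at 7.21, 12.5 and 8.18 CPM with rhCYGB, against 19.1, 24.7 and 14.8 CPM with vehicle. Its groups did not overlap, and on the log2 scale they differed by -1.07 (SE 0.32). For Timp1 the unadjusted p was 0.0122 and the adjusted p was 0.523 by edgeR. Like Mmp13, Mmp12, Mmp9 and Mmp8, this inhibitor had its 3 lowest values in the 3 rhCYGB livers. Timp4, the inhibitor that was higher without overlap, had 56, 78 and 462 estimated counts with rhCYGB and 2, 2 and 8 with vehicle. In CPM it was at 0.730, 1.45 and 12.3 with rhCYGB and at 0.0237, 0.0284 and 0.114 with vehicle. Its log2 fold change was 6.41 (SE 1.37, edgeR unadjusted p = 0.00202, adjusted p = 0.523), from few vehicle counts.

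Enzymes that activate proenzymes were split, with 7 of 15 tested genes lower and 8 higher, a median log2 fold change of 0.089 against -0.056 over all genes, and 1 lower and 0 higher genes at an unadjusted p under 0.05, against 2.06% and 6.06% of all genes. In CPM, 3 were lower and 4 higher without overlap, against 7.38% and 6.02% of all genes tested. In TPM, 4 were lower and 0 higher without overlap, against 12.7% and 1.33%. Plau, the urokinase that turns plasminogen into plasmin, was at 5.42, 2.65 and 1.17 CPM with rhCYGB, against 7.88, 6.91 and 14.3 CPM with vehicle (edgeR log2 fold change -1.64, unadjusted p = 0.0251, adjusted p = 0.523). Plg, the plasminogen made by hepatocytes, was at 1402, 1662 and 2163 CPM with rhCYGB and at 963, 1537 and 1327 CPM with vehicle, and its groups overlapped.

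Of the inducers and transcription factors of the family, 19 of 22 tested genes had lower values with rhCYGB, with a median log2 fold change of -0.85. The groups did not overlap for 8 of the 22, all lower, against 7.38% of all genes tested, and 3 lower genes had an unadjusted p under 0.05, against 2.06%. The cytokine Tgfb1 was at 14.8, 16.3 and 8.87 CPM with rhCYGB, against 19.3, 23.8 and 28.2 CPM with vehicle. Tnf, a cytokine that induces Mmp9 and Mmp13, was at 1.19, 0.798 and 0.425 CPM with rhCYGB, against 2.64, 1.73 and 1.54 CPM with vehicle. Runx1, a transcription factor, was at 2.32, 2.28 and 3.13 CPM with rhCYGB, against 5.35, 3.29 and 5.27 CPM with vehicle. The adjusted p was 0.523 for each (edgeR), and each had rhCYGB values below all vehicle values.

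The matrix proteins and other substrates of these enzymes had lower values in 20 of 22 tested genes, with a median log2 fold change of -0.73, and their groups did not overlap for 9, all lower, against 7.38% of all genes tested. Of the 22, 3 lower genes had an unadjusted p under 0.05, against 2.06% of all genes. Col1a1, Col1a2, Col3a1 and Dcn are also among the stellate and fibroblast markers below, and Spp1 is among the bile duct markers. These lists are therefore not independent. Tnc, a matrix glycoprotein of injured tissue, was at 3.95, 2.78 and 0.930 CPM with rhCYGB, against 7.67, 7.15 and 6.71 CPM with vehicle. Spp1, or osteopontin, which Mmp7 and Mmp9 can cut, was at 542, 299 and 113 CPM with rhCYGB, against 975, 892 and 897 CPM with vehicle. Col6a1, a chain of microfibrillar collagen, was at 18.5, 20.5 and 8.69 CPM with rhCYGB, against 25.0, 34.8 and 27.3 CPM with vehicle. Among 14 genes listed as surface partners 9 had lower and 5 higher values, with a median log2 fold change of -0.18. In CPM, 0 were lower and 0 higher without overlap. In TPM, 2 were lower and 0 higher, against 12.7% and 1.33% of all genes tested. Bsg, or CD147, an inducer of the family on neighbouring cells, was at 541, 874 and 835 CPM with rhCYGB and at 367, 873 and 656 CPM with vehicle. Tspan14 was at 7.30, 11.9 and 4.36 CPM with rhCYGB and at 32.2, 25.1 and 6.80 CPM with vehicle, and its groups overlapped. On log2(TPM + 1) the medians of the inhibitors, activators, inducers, surface partners and substrates were -0.68, -0.67, -0.95, -0.84 and -1.11, against -0.51 for all genes. Once the length trend was removed they were -0.39, 0.46, -0.72, -0.14 and -0.34, against 0.10 for all genes. Only the activators changed direction between these scales.

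Markers of the cells that make metalloproteinases are given as summed TPM, a scale on which the median log2 fold change of all genes was already -0.51, and as counts of log2 fold changes from edgeR. No marker passed an adjusted p of 0.05 by edgeR. The median log2 fold change was -0.20 for macrophage, -0.057 for neutrophil, -0.67 for stellate and fibroblast and -0.19 for bile duct markers, against -0.056 over all genes tested. The 17 macrophage markers summed to between 1817 and 3187 TPM with rhCYGB and between 3938 and 5719 TPM with vehicle. Of them 10 had lower and 7 higher log2 fold changes, and 0 were at 0. Lyz2 made up 39.9% of the summed TPM. Ccr2, a receptor of recruited monocytes, was at 7.40, 5.77 and 1.70 CPM with rhCYGB, against 19.4, 16.1 and 12.5 CPM with vehicle. Itgax and Cx3cr1 also had rhCYGB values below all vehicle values. In CPM, 3 of the 17 markers were lower and 1 was higher without overlap, against 7.38% and 6.02% of all genes tested. In TPM, 9 were lower and 0 higher, against 12.7% and 1.33%. Marco, a scavenger receptor of resident macrophages, was at 147, 244 and 214 CPM with rhCYGB, against 109, 99.4 and 106 CPM with vehicle, so it was higher without overlap in CPM. In TPM its groups overlapped, at 160, 132 and 99.2 with rhCYGB and 154, 88.8 and 107 with vehicle. The part of macrophage number in the Mmp12 difference was not tested.

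The 14 neutrophil markers summed to between 1657 and 1969.5 TPM with rhCYGB and between 2437 and 3890.2 TPM with vehicle, but 93.5% of the sum was Lcn2, which injured hepatocytes also make. In CPM the groups of Lcn2 overlapped, at 596, 1466 and 1588 with rhCYGB and 663, 1756 and 1376 with vehicle. Ly6g was at 0 in all 6 livers. Of the 11 tested, 6 had lower and 5 higher log2 fold changes. In CPM, 1 was lower and 0 higher without overlap, against 7.38% and 6.02% of all genes tested. In TPM, 3 were lower and 0 higher, against 12.7% and 1.33%. Csf3r, the receptor for the neutrophil growth factor, was at 8.28, 6.03 and 3.24 CPM with rhCYGB, against 15.0, 10.9 and 12.5 CPM with vehicle. The part of neutrophils in the Mmp8 and Mmp9 values was not tested.

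The 17 stellate cell and fibroblast markers summed to between 79.0 and 523 TPM with rhCYGB and between 558 and 1040.2 TPM with vehicle, with lower log2 fold changes in 15 of 17 and 0 at 0. Dcn made up 42.8% of the sum, and its groups overlapped in CPM and TPM. In CPM, 6 of the 17 markers were lower and 0 higher without overlap, against 7.38% and 6.02% of all genes tested. In TPM, 7 were lower and 0 higher, against 12.7% and 1.33%. Pdgfrb, the stellate cell receptor for platelet-derived growth factor, was at 21.5, 16.9 and 10.4 CPM with rhCYGB, against 28.9, 30.5 and 26.2 CPM with vehicle. Mmp2, by comparison, overlapped between the groups. The 15 bile duct markers summed to between 157 and 953 TPM with rhCYGB and between 1237 and 2173 TPM with vehicle, with 86.7% of the sum from Spp1 and 0 at 0. Of them 9 had lower and 6 higher log2 fold changes. Without overlap in CPM, 3 of the 15 were lower and 0 higher, and in TPM 1 was lower and 0 higher. Krt19, a keratin of bile duct cells, was at 13.4, 39.5 and 42.3 CPM with rhCYGB and at 19.1, 22.4 and 20.5 CPM with vehicle. In TPM it was at 20.9, 30.7 and 28.3 with rhCYGB and at 39.1, 28.9 and 29.9 with vehicle, so its groups overlapped on both scales and the order of the mice depended on the scale. The part of bile duct cells in the Mmp7 values was not tested.

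The 12 hepatocyte markers had higher log2 fold changes in 12 of 12, with Cyp2e1 at 711, 1843 and 4179 CPM with rhCYGB and at 542, 849.9 and 773 CPM with vehicle, while their summed TPM overlapped between the groups. Their median log2 fold change was 0.71, and it was -0.089 on log2(TPM + 1). The 12 endothelial markers summed to between 47.0 and 173 TPM with rhCYGB and between 127 and 220.1 TPM with vehicle, and 9 of 12 had lower log2 fold changes. Their median and that of the bile duct markers, once the length trend was removed, were 0.056 and 0.057, against -0.15 and -0.19 before. With that trend removed, the medians were -0.24 for macrophage, -0.56 for neutrophil and -0.44 for stellate and fibroblast markers. The hepatocyte median was then 0.94, and that of all genes tested was 0.10, against -0.056 before.

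**Figure D5:**
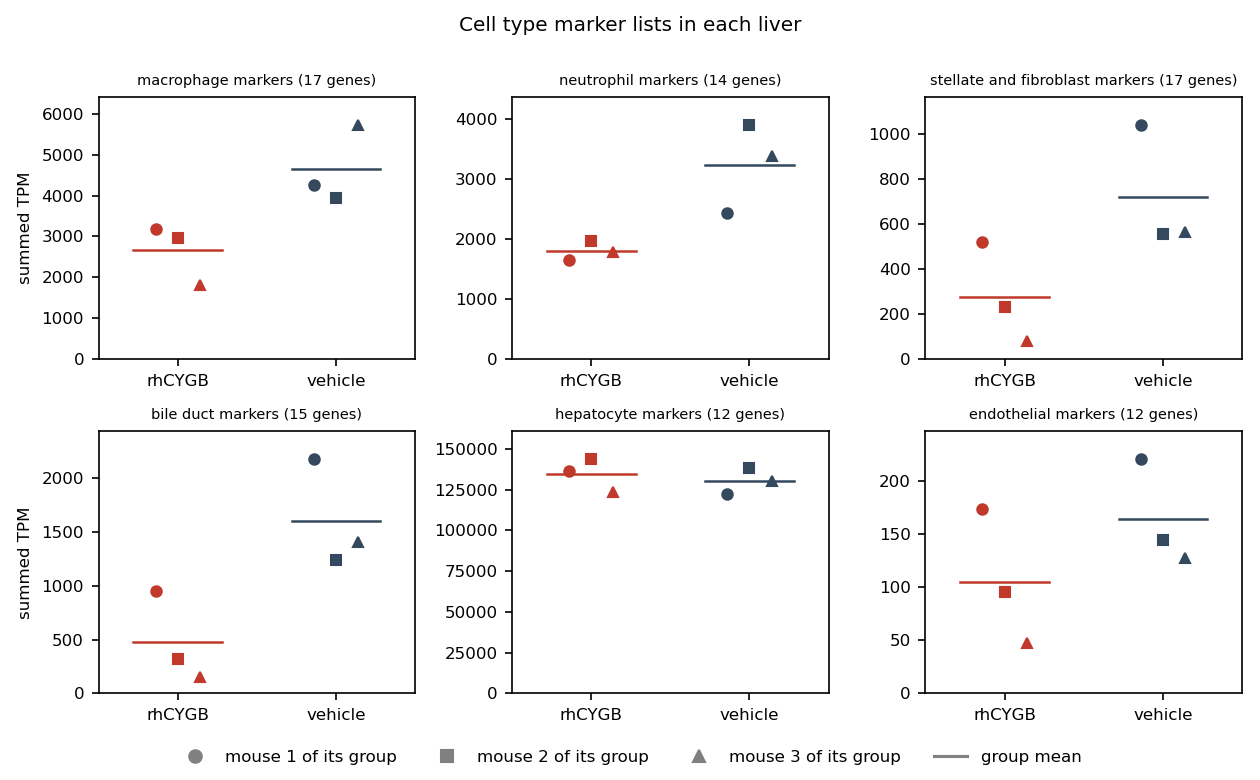
Summed TPM of each list of cell type markers in each mouse, rhCYGB left and vehicle right, with lines at group means. The macrophage, neutrophil, stellate and bile duct sums have all 3 rhCYGB mice below all 3 vehicle mice, while the hepatocyte and endothelial sums overlap. In TPM, 12.7% of all genes tested were lower with rhCYGB without overlap. Lcn2 makes up 93.5% of the neutrophil sum and overlaps between the groups in CPM. Spp1 makes up 86.7% of the bile duct sum and Lyz2 39.9% of the macrophage sum. Dcn makes up 42.8% of the stellate sum and overlaps between the groups in CPM and TPM.

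For 9 of the metalloproteinases the tested gene with the closest pattern over the 6 libraries is given by the distance between log2 CPM profiles, each centred on its own mean, among 13612 genes. Mmp13 was closest to Myo1f, a myosin of leukocytes, at a distance of 0.46. Mmp9 was closest to Adamts12, a metalloproteinase of another family, at 0.22, and Mmp8 to Sp110, an interferon-induced nuclear protein, at 0.18. Mmp7 was closest to Rpph1, the short RNA of ribonuclease P, at 0.74, the largest of the distances given here. Mmp14 was closest to Ptms at 0.19, Mmp15 to Tspan15 at 0.29, Mmp19 to Ahcyl1 at 0.12, Mmp2 to Rfesd at 0.19 and Mmp23 to Pglyrp1 at 0.42. These distances were not scaled to how much each gene varied. On the same measure, the distance of a profile from its own mean was 3.29 for Mmp7 and 0.40 for Mmp19.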

How the data were processed

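Liver mRNA of 6 mice, 3 per group, was sequenced from both ends of fragments after a stranded poly(A) library kit, per the labels' protocols. The authors deposited a gene and a transcript table with 1 estimated count and 1 FPKM value per feature and library. Per the submitters' processing notes, FastQC 0.11.7, HISAT2 2.1.0 and StringTie 1.3.4d were used with mm10. The deposited counts are whole numbers. For the 6728 to 10605 transcripts with the highest counts in each library, counts over the product of FPKM and transcript length spanned 0.191% to 0.198% of their median. Counts and FPKM thus carry the same values apart from rounding. This ratio cannot tell coverage estimates from read tallies, since FPKM made from either would give it. The counts are treated as estimates, and replicate spread sets the precision. No source used here names the annotation release or the strand setting, so overlapping and antisense genes are uncertain.

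Genes were kept by filterByExpr, scaled by TMM and tested in R 4.3.3 with edgeR 4.0.16 (robust quasi-likelihood F test, Benjamini-Hochberg over 14415 genes, rhCYGB over vehicle). Each SE was obtained by dividing the absolute log2 fold change by the root of the F statistic. TPM is FPKM divided by its library sum. The test was tested on simulated data. Alternatives used limma 3.58.1 and DESeq2 1.42.0. The length correction removed a loess trend on transcript length per library. The 10 genes, the lists and the tests were chosen with earlier results of these data known. List genes were named by an unadjusted p under 0.05 (at most 4), filled to 2 by mean TPM. Genes with Gm, LOC or Rik names and other metalloproteinases were left out of the pattern search, which used log2(CPM + 0.5). Its result for Mmp12 is not reported here. The labels give no batch. Promoter windows are RefSeq's (GRCm38.p6), found for 7 of the 10 genes.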

Additional observations from a re-analysis of the deposited data

How the results depend on the processing

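Mmp13, Mmp12, Mmp9 and Mmp8 kept negative log2 fold changes and Mmp7 a positive one in all 16 alternatives that gave a value (Mmp13 -2.63 to -1.49, Mmp12 -2.27 to -1.12, Mmp9 -1.95 to -0.80, Mmp8 -1.38 to -0.60, Mmp7 0.74 to 2.67). On log2(TPM + 1) and log2(TPM + 0.1), where the medians of all genes were -0.51 and -0.75, 9 of the 10 genes were lower under each, and the reversed values were -0.58 and -0.66 for Mmp2, -0.15 and -0.15 for Mmp14, -0.52 and -0.53 for Mmp19 and -0.53 and -0.63 for Mmp23. Mmp2 was -0.083 with upper-quartile factors and Mmp23 -0.0060 with the length trend removed. With 1 library left out, Mmp2 ran from -0.13 to 0.36, Mmp15 from -0.90 to 0.067 and Mmp23 from -0.44 to 0.62, and the number of lower members from 4 to 7. The cause of these reversals was not tested.

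Genes called numbered 0 by edgeR (1170 at an unadjusted p under 0.05), 65 by DESeq2, 4323 by limma-voom with sample quality weights, 0 by limma-voom without weights, and 0 to 3391 with 1 library left out, the 3391 without rhCYGB replicate 1. Of genes at an unadjusted p under 0.05, 74.6% were higher with rhCYGB under TMM, 52.0% with upper-quartile factors and 7.25% on log2(TPM + 1). Transcripts called numbered 0 by edgeR, 0 by limma-voom with or without sample quality weights, 268 by DESeq2, 1 on log2(TPM + 1), 1 on log2(TPM + 0.1), and 0 to 958 with 1 library left out. An adjusted p of 0.1 called 0 genes and 0 transcripts. With 3 mice per group, low counts such as those of Mmp8 and Mmp11 limit what can be told. No paired analysis was possible because the animal numbers in the labels differ between the groups.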

Other observations

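The related ADAM and ADAMTS proteases, which shed cell surface proteins and cut proteoglycans, had lower log2 fold changes with rhCYGB in 18 of 19 tested genes of 20 listed, with a median of -0.55 against -0.056 over all genes tested. The groups did not overlap for 3, all lower, where 7.38% of all genes were lower without overlap, and 0 passed an adjusted p of 0.05 by edgeR. The median was -0.14 with the length trend removed. Their summed level was 116, 41.0 and 26.6 TPM in rhCYGB mice 1 to 3 and 174, 89.4 and 124 TPM in vehicle mice 1 to 3. Adam12, a protease of activated stellate cells, was at 0.782, 0.928 and 0.372 CPM with rhCYGB, against 1.50, 1.69 and 2.05 CPM with vehicle (edgeR log2 fold change -1.32, unadjusted p = 0.0238, adjusted p = 0.523). Adam9 was at 66.4, 21.7 and 1.57 CPM with rhCYGB and at 50.0, 41.4 and 47.6 CPM with vehicle, so rhCYGB mouse 3 alone was far below the other 5 livers.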
